A study of Mus musculus with 135 samples.

Results

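The amino acid transporter genes described here are the mouse genes whose symbols belong to the Slc1, Slc3, Slc6, Slc7, Slc36 and Slc38 families of solute carriers. The symbol rule found 61 of the 24116 gene names used, of which 58 are transporter genes and 3 (Slc7a6os, Slc36a1os and Slc6a19os) are opposite-strand genes named after a transporter. By family there were 7 Slc1, 2 Slc3, 19 Slc6, 15 Slc7, 4 Slc36 and 11 Slc38 transporter genes. The rule uses the symbol alone and no measured value. Smart-seq2, the library method, does not keep the strand. Reads from any stretch that Slc7a6os shares with the gene it overlaps therefore cannot be assigned to either. Slc6a20a and Slc6a20b are near-copies between which reads may be split.

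Amino acid carriers bring in the building blocks of protein and the osmolytes that early embryos accumulate, and the oocyte and the cleaving embryo are known to change the set of carriers they use. Slc1 carriers take up glutamate and aspartate or exchange neutral amino acids, Slc6 carriers couple uptake to sodium and chloride, and the Slc7 light chains reach the cell surface bound to an Slc3 heavy chain. Slc38 carriers move glutamine and other small neutral amino acids with sodium, and Slc36 carriers are driven by protons, some of them at the lysosome, where amino acid supply is sensed by the kinase complex mTORC1.

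RNA was measured in 107 of the 135 samples, in a study of OBOX, a family of oocyte and embryo homeobox factors, at the switch from maternal to embryonic transcription. Wild-type full-grown oocytes (FGO), MII oocytes, early 2-cell, late 2-cell and 4-cell embryos and blastocysts were set beside Obox KO oocytes and Obox mzKO embryos, which lack both the mother's and their own Obox genes. The mzKO libraries of the 4-cell time are embryos taken when controls had reached the 4-cell stage, and those of the blastocyst time are 2-cell embryos that had arrested. Each of these groups had 2 libraries, apart from 3 in each late 2-cell and 4-cell group. Single libraries came from mzKO embryos titled Obox157OE, Obox3OE and Obox4OE, the first pair from blastocysts and the last from arrested 2-cell embryos.

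Further sets, each with its own controls, were Obox mKO embryos (2 late 2-cell libraries and 1 blastocyst library), Obox+- against Obox-- 2-cell embryos (3 libraries a group, 4 for late 2-cell Obox--), and siRNA knockdowns. The siRNAs entered full-grown oocytes that then became parthenotes (embryos without sperm), or zygotes, with 2 or 3 libraries a group and 1 each for zygotic siObox3 and its control. Mouse embryonic stem cells (ESCs) overexpressed GFP (5 libraries), Obox3 (4) or Obox5 (4). A second ESC set, wild type or Nr5a2 KO, had 2 libraries for each of the same overexpressions. Late 2-cell embryos and blastocysts injected with water or labelled as overexpressing Obox1, Obox2, Obox3 or Obox5 had 1 library each. The labels give no strain or age and do not say which libraries came from separate animals, collections or cultures, nor how many clones the Nr5a2 KO line is, so p-values measure only the spread between these libraries.

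Values are FPKM, computed by the authors, a share of each library scaled by transcript length. The libraries' FPKM sums ran from 37752 to 535770, the share of Rn45s, the ribosomal RNA precursor, from 0.114% to 71.5%, and the genes at 1 FPKM or more from 2167 to 10583. The 4 abundant maternal Obox genes stood at 507 to 2960 FPKM in wild-type oocytes, at 0 to 1.02 in Obox KO oocytes and at 0 to 0.445 in mzKO embryos up to the 4-cell time. Obox6 and Obox8 were lower in mzKO embryos but not absent. At the late 2-cell stage Obox6 stood at 59.3 to 87.4 FPKM in mzKO against 219 to 471 in wild-type embryos. Obox8 stood at 5.71 to 11.7 against 67.7 to 140. At the 4-cell time mzKO embryos held Obox6 at 15.6 to 140 and Obox8 at 0.272 to 71.8, against 117 to 624 and 77.5 to 416. Early 2-cell Obox-- embryos still held maternal Obox5 at 272 to 497 FPKM, with Obox3 and Obox4 listed at 0, so the mother's transcripts were present there. In the mzKO libraries titled Obox157OE, Obox3OE and Obox4OE the Obox genes of the titles were listed at 0, and those titles could not be checked at that time. Of the 2 libraries of arrested mzKO embryos, replicate 1 held Obox3 at 59.7 FPKM, against its label, and replicate 2 listed it at 0. Summed over 11 cumulus and granulosa cell markers, the highest library of the oocyte and mzKO set stood at 24.5 FPKM, with 1 or 2 of the 11 at 1 FPKM or more in the oocyte and 2-cell groups.

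Of the 61 genes, 47 reached 1 FPKM in at least 1 library, 24 reached 10 and 10 reached 50. The 14 that never reached 1 included the brain glutamate carrier Slc1a2 and the noradrenaline transporter Slc6a2. Slc3a2, the heavy chain CD98 that carries Slc7 light chains to the membrane, had the highest level of any of the genes, 124.7 FPKM in a library of the 4-cell mzKO group, and had the highest mean of the 58 transporter genes in each wild-type group before the blastocyst (Slc7a6os was higher in late 2-cell embryos). The 5 highest means of transporter genes in wild-type full-grown oocytes were 29.2 FPKM for Slc3a2, 10.3 for the glycine transporter Slc6a9, 9 for the imino acid (proline) transporter Slc6a20a, 7.18 for the cystine transporter Slc7a11 and 6.42 for Slc6a20b. In wild-type blastocysts they were 52.9 for the creatine transporter Slc6a8, 38.7 for Slc3a2, 32.9 for the light chain Slc7a6, 13.8 for Slc38a4 and 12.5 for the glutamate transporter Slc1a1.

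**Figure D1:**
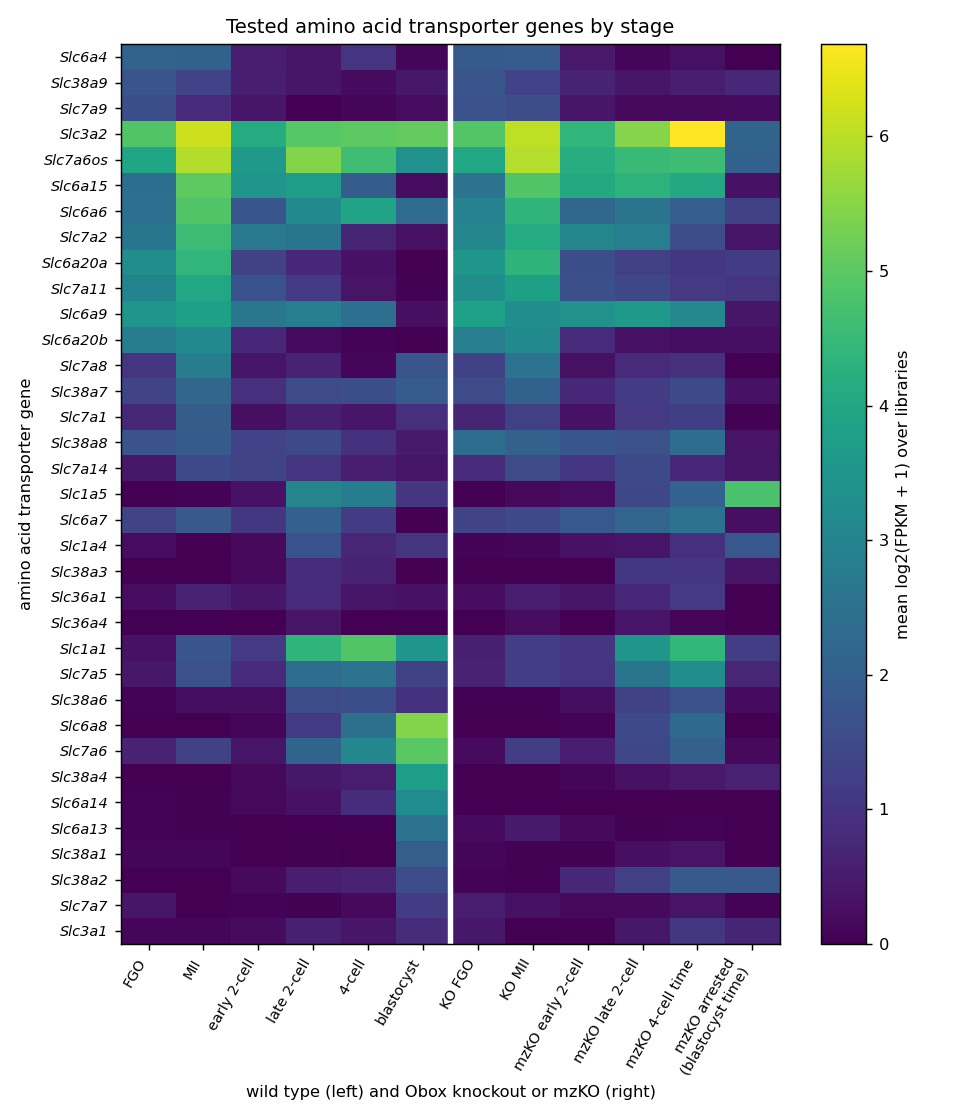
Mean level of the 35 genes tested, Slc7a6os included, in the oocyte and mzKO set, as log2(FPKM + 1) in a colour scale (x axis: groups from full-grown oocyte to blastocyst, wild type on the left and Obox KO or mzKO on the right; y axis: genes ordered by the wild-type stage of their highest mean). Oocyte genes such as Slc6a20a and Slc7a11 sit at one end and blastocyst genes such as Slc6a8 (52.9 FPKM) and Slc38a4 (13.8 FPKM) at the other.

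Upstream sequence is shown for Slc1a1, the gene called in every Obox overexpression test in ESCs below, and for a gene holding each motif searched. RefSeq windows (GRCm38.p6, while the files use mm9) of 250 bases before to 50 after the start were found for 44 of the 61 genes. They were searched on both strands for TAATCC, a sequence bound by homeodomains of the bicoid type, and for TGATGNAA, the core of the C/EBP-ATF element through which amino acid shortage acts on transcription. TAATCC was present in the window of 8.14% of all 27025 genes (7.06% of their 32851 windows) and of 3 of the 44 genes (6.82%), Slc6a13, Slc6a14 and Slc6a5. TGATGNAA was present for 4.51% of all genes (3.97% of windows) and likewise for 3 of the 44, Slc1a4, Slc7a11 and Slc7a7. The 250 bases before each start follow, written 5′ to 3′ on the gene's strand, with motif matches in capitals. Slc7a11 has a pair of facing matches to TGATGNAA, 66 and 47 bases before its start. Slc6a13 has TAATCC on the opposite strand, 67 bases before the start shown. That is the first of 3 windows listed for Slc6a13, and the others hold no match. Slc1a1 has neither motif in the window shown, in which 70.4% of bases are G or C. A match describes the letters only.
Slc1a1, chr19:28834885-28835134, plus strand: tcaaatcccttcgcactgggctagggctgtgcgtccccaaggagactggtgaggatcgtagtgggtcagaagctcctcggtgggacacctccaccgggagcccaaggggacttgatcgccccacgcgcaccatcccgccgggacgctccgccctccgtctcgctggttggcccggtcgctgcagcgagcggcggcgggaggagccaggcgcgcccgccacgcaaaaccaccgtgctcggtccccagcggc
Slc6a13, chr6:121300038-121300287, plus strand: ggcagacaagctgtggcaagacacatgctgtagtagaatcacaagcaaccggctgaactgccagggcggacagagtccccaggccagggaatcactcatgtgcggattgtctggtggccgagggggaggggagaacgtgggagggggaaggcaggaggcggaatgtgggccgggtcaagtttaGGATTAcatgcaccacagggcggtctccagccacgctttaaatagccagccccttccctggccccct
Slc7a11, chr3:50443614-50443863, minus strand: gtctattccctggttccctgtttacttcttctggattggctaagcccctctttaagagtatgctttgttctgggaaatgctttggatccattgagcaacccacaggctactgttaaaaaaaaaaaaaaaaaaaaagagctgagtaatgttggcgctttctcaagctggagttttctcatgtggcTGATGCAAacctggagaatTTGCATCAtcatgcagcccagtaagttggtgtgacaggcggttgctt

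Between wild-type full-grown and MII oocytes, 7 of the 35 genes tested rose and 0 fell (limma, called at an adjusted p under 0.05 and a log2 change of at least 1 in size). Counts and medians of the transporter genes, here and below, include Slc7a6os. FPKM is a share of the library. At this step and the next a change in share cannot be told from a change in transcript per cell. Most genes called at this step were higher: 25.1% of 13989 were called, 22.9% higher and 2.24% lower, and the median change was 0.50 for all genes against 0.32 for the transporter genes. The called genes were carriers of neutral amino acids and taurine (Slc6a15, Slc6a6), cationic amino acid carriers (Slc7a1, Slc7a2), the light chain Slc7a8, Slc7a14 and Slc7a6os. Fold changes here and below are differences on the log2(FPKM + 1) scale, so the change of a low gene comes out smaller than its ratio of FPKM.

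Slc6a15, a carrier of branched-chain amino acids and proline, stood at 6.08 and 3.09 FPKM in the full-grown oocytes and at 32.9 and 30.8 in MII oocytes, a log2 change of 2.61 ± 0.602 (SE, adjusted p = 0.00648). The taurine transporter Slc6a6 stood at 7.23 and 2.6 and then at 33.2 and 24.1 (2.43 ± 0.636, adjusted p = 0.0103), and Slc7a2, an importer of arginine and lysine, at 7.14 and 3.46 and then at 24 and 21.7 (1.99 ± 0.617, adjusted p = 0.0212). In each the MII libraries lay above both full-grown ones. The light chain Slc7a8 (LAT2) stood at 1.92 and 0.441 and then at 7.43 and 4.82 (1.77 ± 0.429, adjusted p = 0.00754), again without overlap. Slc7a6os stood at 17.3 and 11.6 and then at 53.9 and 65.8 (2.00 ± 0.73, adjusted p = 0.0444). With library sums made equal without Rn45s the median of all genes was 0.26 and 2 of the 7 calls were kept. With median-ratio scaling it was 0.025 and 0 were kept, the calls then being falls of the lysosomal arginine sensor Slc38a9 and of Slc7a9. Leaving out 1 library gave 0 to 6 calls. Full-grown oocyte replicate 2 had fewer genes at 1 FPKM, 6045 against 8063, and its part in this was not tested.

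From MII oocytes to wild-type early 2-cell embryos 9 of the 35 genes fell and 0 rose, with 21.6% of all genes called (2.09% higher, 19.5% lower) and median changes of -0.65 for the transporter genes and -0.45 for all genes. The step shares its MII libraries with the one before. Slc6a20a stood at 21.7 and 18.9 FPKM in MII oocytes and at 2.86 and 0.587 in early 2-cell embryos, a log2 change of -3.10 ± 0.532 (adjusted p = 0.000102). Its near-copy Slc6a20b stood at 9.25 and 6.89 and then at 1.64 and 0.105 (-2.40 ± 0.417, adjusted p = 0.000123). Neither gene's libraries overlapped between the stages.

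Slc6a6, one of the genes called higher in MII oocytes without rescaling, was back at 4.25 and 1.27 FPKM (-3.09 ± 0.636, adjusted p = 0.000807), and Slc7a8 was at 0.514 and 0.099 (-2.44 ± 0.429, adjusted p = 0.000135). Slc7a11, which imports cystine in exchange for glutamate, stood at 14 and 16.4 in MII oocytes and at 4.34 and 0.931 at the early 2-cell stage (-2.33 ± 0.477, adjusted p = 0.000752). Slc7a2 was at 10 and 2.83 (-1.88 ± 0.617, adjusted p = 0.0282) and Slc7a6os at 25 and 4.54 (-2.33 ± 0.73, adjusted p = 0.0211). In every one of these the early 2-cell libraries lay below both MII libraries. The serotonin transporter Slc6a4 and Slc7a1 also fell, from levels below 5 FPKM. The wild-type early 2-cell replicate 2 was the lower library of each gene and had 5539 genes at 1 FPKM against 8990 in replicate 1. Without it, 5 genes were called, and Slc7a2, Slc7a6os, Slc7a11 (adjusted p = 0.0515) and Slc6a4 were not. With equal sums the median of all genes was -0.039 and 6 of the 9 genes were called lower, and with median-ratio scaling 7 were.

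At the late 2-cell stage, when the embryo's own genome is broadly switched on, 7 of the 35 genes rose from the wild-type early 2-cell level and 0 fell. This share is below that of all genes, of which 37.4% were called (34.2% higher, 3.16% lower), and the median change was 0.33 for the transporter genes and 0.72 for all genes. Among the genes that rose were Slc1a1, Slc1a4 and Slc1a5, the only 3 of the 7 Slc1 genes that were tested. The summed level of the Slc1 family ran from 23.7 to 41.6 FPKM in the 3 late 2-cell libraries, and stood at 2.38 and 0.977 at the early 2-cell stage. Slc1a1 and Slc1a5 made up most of that sum.

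Slc1a1 (EAAT3), a glutamate and aspartate transporter, stood at 1.73 and 0.723 FPKM in early and at 33, 17.7 and 13.4 in late 2-cell embryos, a log2 change of 3.27 ± 0.526 (adjusted p = 1.98e-05). Slc1a5 (ASCT2), an exchanger of glutamine and other neutral amino acids, stood at 0.417 and 0.13 and then at 5.99, 8.34 and 7.46 (2.70 ± 0.486, adjusted p = 7.28e-05). All late libraries of both genes lay far above the early ones. Slc7a6os stood at 52.6, 36.5 and 40.4 in late 2-cell embryos (1.86 ± 0.666, adjusted p = 0.0267), a call that was lost without early 2-cell replicate 2 (adjusted p = 0.523) and with other scalings. The others stayed below 5 FPKM on average: Slc1a4 (ASCT1, log2 change 1.52), the light chains Slc7a5 (LAT1, 1.59) and Slc7a6 (1.77), and Slc38a6 (1.29). With median-ratio scaling the median of all genes was 0.084, 3 genes were called higher (Slc1a1, Slc1a5 and Slc7a6) and 2 lower (Slc6a20a and Slc7a11).

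Between the late 2-cell and 4-cell stages of wild-type embryos 1 gene rose and 2 fell, with 13.1% of all genes called (1.77% higher, 11.3% lower). Slc6a15 stood at 16, 9.41 and 12.5 FPKM in late 2-cell and at 3.29, 2.44 and 3.14 in 4-cell embryos, a log2 change of -1.76 ± 0.492 (adjusted p = 0.0165). Slc7a2 stood at 2.81, 6.49 and 6.73 and then at 1.25, 0.191 and 0.593 (-1.90 ± 0.504, adjusted p = 0.0122). The stages did not overlap for either gene. Slc6a8, the creatine carrier, rose from 1.93, 0.898 and 0.959 to 3.97, 8.23 and 2.67 (1.32 ± 0.452, adjusted p = 0.0488), with the lowest 4-cell library just above the highest late 2-cell one. Only 1 call was left with equal sums and 1 with median-ratio scaling, and leaving out 1 library gave 0 to 4.

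Blastocysts held a different set. Against wild-type 4-cell embryos 7 genes rose and 5 fell, with 28.3% of all genes called (10.5% higher, 17.7% lower) and median changes of -0.07 for the transporter genes and -0.21 for all genes. The genes that rose were Slc6a8, Slc6a13 and Slc6a14, Slc7a6 and Slc7a8, and Slc38a1 and Slc38a4. In these bulk libraries fewer cells with a transcript and less of it per cell cannot be told apart.

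Slc6a8 stood at 84.7 and 21.1 FPKM in blastocysts against 3.97, 8.23 and 2.67 in 4-cell embryos, a log2 change of 2.98 ± 0.505 (adjusted p = 4.4e-05). Slc38a4, a carrier of neutral amino acids whose gene is imprinted in the mouse, stood at 20.1 and 7.63 against 0.708, 0.28 and 0.384 (3.22 ± 0.337, adjusted p = 1.99e-08). Slc6a14, which takes up neutral and cationic amino acids, stood at 20.7 and 3.15 against 0.775, 1.46 and 0.449 (2.36 ± 0.374, adjusted p = 1.71e-05). Replicate 1 was the higher blastocyst library each time, and both lay above every 4-cell library.

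The light chain Slc7a6 stood at 46.1 and 19.7 FPKM against 11.1, 10.6 and 3.55 (1.86 ± 0.485, adjusted p = 0.00427), a call lost without blastocyst replicate 1 (adjusted p = 0.134). Slc6a13 (GAT2), a transporter of GABA and taurine, stood at 5.91 and 3.63 and was listed at 0 in all 3 of the 4-cell libraries (adjusted p = 4.53e-10). Slc38a1 (SNAT1, log2 change 2.00) and Slc7a8 (1.65) rose to means below 5 FPKM.

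Slc1a5 fell from 5.61, 6.77 and 5.65 FPKM to 1.37 and 0.801 (-1.76 ± 0.486, adjusted p = 0.0067), and Slc6a6 from 17.3, 15.4 and 10.3 to 7.06 and 2.16 (-1.58 ± 0.58, adjusted p = 0.04). The groups did not overlap for either, but both calls were lost without blastocyst replicate 2 (adjusted p = 0.0852 and 0.452), and that of Slc6a6 also without 4-cell replicate 1 or 2. The glycine transporter Slc6a9 fell from 4.84, 7.37 and 2.37 to 0.225 and 0.211, and Slc6a15 and Slc7a5 fell as well. With median-ratio scaling the split was 8 higher and 1 lower, the 1 being Slc1a5. The 7 blastocyst markers summed to 2620 and 4040 FPKM in these blastocysts and to at most 10.3 in 4-cell embryos.

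Loss of Obox left the transporter genes of oocytes and early 2-cell embryos without a call. In Obox KO full-grown oocytes 0 of 35 genes passed (0 at an unadjusted p under 0.05), in KO MII oocytes 0 (2 unadjusted) and in mzKO early 2-cell embryos 0 (0 unadjusted), where 0.0715%, 0.0572% and 0.4% of all genes were called. Slc6a15, for example, stood at 25.3 and 9.47 FPKM in mzKO and at 25.1 and 3.75 in wild-type early 2-cell embryos. Slc3a2 stood at 27.6 and 14.4 against 33.8 and 7.91. With 2 libraries a group these values do not show equal levels.

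In mzKO late 2-cell embryos the neutral amino acid exchangers Slc1a5 and Slc1a4 fell and 0 of the 35 genes rose, with 15.5% of all genes called (4.74% higher, 10.7% lower). Slc1a5 stood at 5.99, 8.34 and 7.46 FPKM in wild-type and at 1.62, 1.23 and 2.41 in mzKO late 2-cell embryos, a log2 difference of -1.60 ± 0.435 (SE, adjusted p = 0.0109). Slc1a4 stood at 2.33, 1.67 and 2.81 against 0.208, 0.242 and 0.484 (-1.31 ± 0.371, adjusted p = 0.0142). Every mzKO library lay below every wild-type library for both genes. Slc1a1, the third Slc1 gene that came on at this stage, stood at 33, 17.7 and 13.4 in wild-type and at 10.9, 11.5 and 8.37 in mzKO embryos, also without overlap, but was not called (-0.91, 95% interval -1.87 to 0.06, adjusted p = 0.187). The call of Slc1a4 was lost without wild-type replicate 3 (adjusted p = 0.055) and with median-ratio scaling (0.0554), and that of Slc1a5 at a pseudocount of 0.1 (0.0521).

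**Figure D2:**
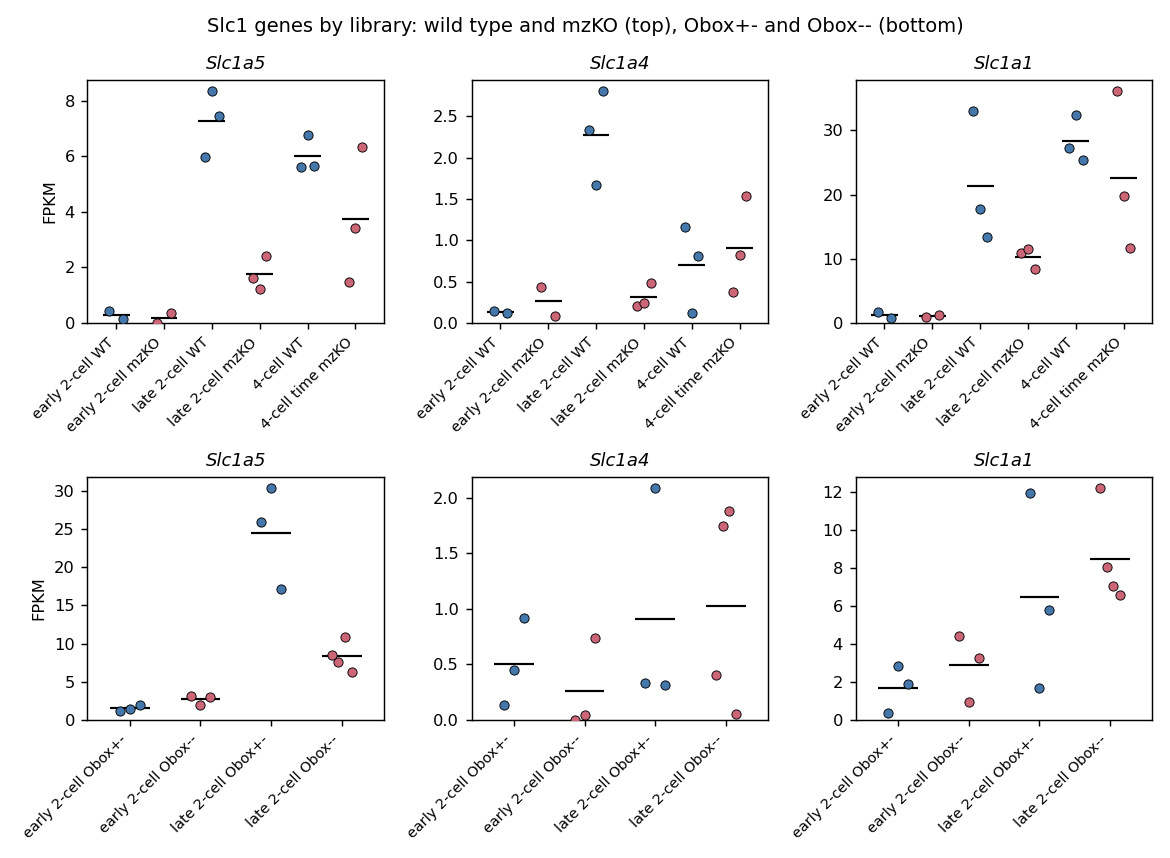
FPKM of Slc1a5, Slc1a4 and Slc1a1 in each library (points) with the group mean (line); the upper panels show wild-type and mzKO embryos from early 2-cell to the 4-cell time, the lower panels Obox+- and Obox-- 2-cell embryos. Slc1a5 lies at 1.23 to 2.41 in mzKO and 5.99 to 8.34 in wild-type late 2-cell embryos, and at 6.31 to 10.8 in Obox-- against 17.1 to 30.4 in Obox+-.

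At the time controls were at the 4-cell stage, 5 transporter genes were higher and 1 was lower in mzKO embryos, with 24.6% of all genes called (14.2% higher, 10.4% lower) and median differences of 0.21 for the transporter genes and 0.16 for all genes. Slc3a2 stood at 25.3, 44.5 and 26.8 FPKM in wild-type and at 68.5, 125 and 124 in mzKO embryos, a log2 difference of 1.68 ± 0.62 (adjusted p = 0.0432). Slc6a15 stood at 3.29, 2.44 and 3.14 against 19.6, 10.4 and 17.8 (2.06 ± 0.492, adjusted p = 0.00301). The mzKO levels of Slc6a15 were close to its late 2-cell levels in either genotype, 9.41 to 16 in wild-type and 17.1 to 20.1 in mzKO embryos.

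Slc6a6 fell, from 17.3, 15.4 and 10.3 FPKM in wild-type to 5.05, 1.34 and 3.49 in mzKO embryos (-1.91 ± 0.519, adjusted p = 0.0079). The remaining 3 were called at levels below 5 FPKM on average: the glutamine carrier Slc38a8 (log2 difference 1.45, adjusted p = 0.0241), the proline transporter Slc6a7 (1.36, 0.0312) and Slc38a2 (SNAT2, 1.27, 0.0441). Their groups did not overlap. Without replicate 3 of the mzKO group the calls of Slc38a2, Slc38a8, Slc3a2 and Slc6a7 were lost, and of the 6 genes Slc6a15 and Slc6a6 alone were called with every 1 library left out. The calls numbered 3 without the filter on low values and 4 with median-ratio scaling. At a pseudocount of 0.1 there were 8, of which 2 were among these 6.

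Summed 2-cell markers were also higher in the mzKO embryos of this time than in wild type, while the sums of oocyte markers overlapped. The part of these markers in the differences was not tested. A list of 7 genes of the 2-cell stage summed to 74.3 to 416 FPKM in mzKO and 8.31 to 36.1 in wild-type embryos, with Tcstv1 and Tcstv3 listed at 0, and 7 oocyte genes to 156 to 436 against 105 to 160. The difference between mzKO and wild type was itself compared between the 4-cell and late 2-cell times. Of the 35 genes 0 passed (3 at an unadjusted p under 0.05), with 1.17% of all genes called, so the change of effect was not shown for any of them. For Slc6a15 it was 1.48 ± 0.695 (adjusted p = 0.396), and for Slc1a5 0.90 ± 0.615 (adjusted p = 0.639).

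**Figure D3:**
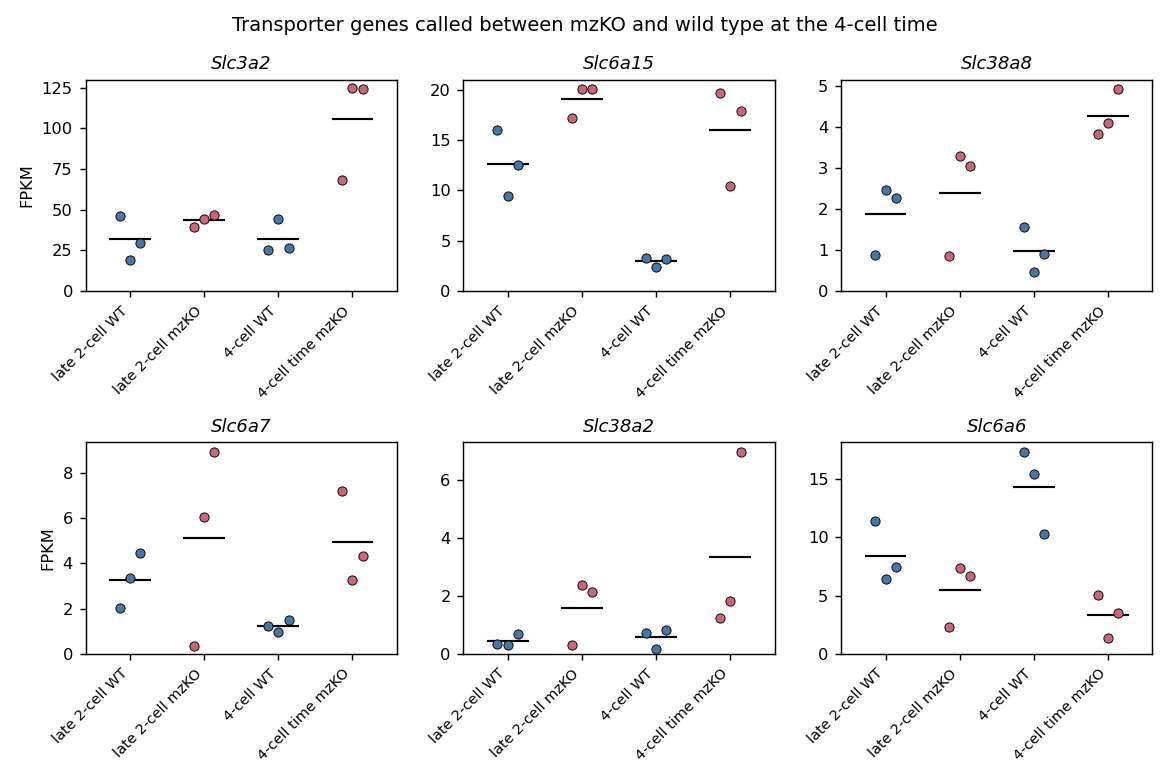
FPKM of the 6 transporter genes called between mzKO and wild-type embryos at the 4-cell time, in each late 2-cell and 4-cell library (points) with the group mean (line). Slc3a2 reaches 68.5 to 125 in mzKO against 25.3 to 44.5 in wild type, and Slc6a6 is the 1 gene lower in mzKO, at 1.34 to 5.05 against 10.3 to 17.3.

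The genes around these carriers moved as follows. Of 19 tested genes listed under the amino acid response, 8 rose and 0 fell between wild-type early and late 2-cell embryos. Of all genes 34.2% rose there, and the median was 1.49 for the 19 against 0.72 for all genes. Sesn2 (3.16) and Ppp1r15b (2.76) led. The list includes genes shared with other branches of the stress response, such as Eif2ak1 and Eif2ak3, so its counts are not particular to amino acid supply. In late 2-cell mzKO embryos Ppp1r15a, which restores eIF2 function, fell (-2.06) and 0 rose (10.7% and 4.74% of all genes). At the 4-cell time 4 were higher in mzKO and 0 lower (14.2% and 10.4% of all genes). They were Ddit3 (CHOP), at 44.1 ± 6.79 against 3.3 ± 0.978 FPKM (SD, n = 3 each, log2 difference 3.40, adjusted p = 0.000636), Chac1, which degrades glutathione (1.99), Trib3 (1.11) and Atf3, which was listed at 0 in wild type. The medians were 0.38 for the list and 0.16 for all genes.

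Of 24 tested genes of amino acid sensing by mTORC1, 6 rose and 0 fell from early to late 2-cell in wild type, a smaller share than the 34.2% of all genes that rose, among them Sesn1 (2.32) and Depdc5 (2.13). In mzKO embryos 1 was higher (Sesn3, 1.06) and 1 lower (Depdc5) at the late 2-cell stage, and 3 were higher and 1 lower at the 4-cell time, among them the Rag GTPase genes Rraga (1.59) and Rragd (1.32). Of all genes 4.74% were higher and 10.7% lower at the late 2-cell stage, and 14.2% and 10.4% at the 4-cell time. Of 15 tested carriers of other families, 7 rose at the wild-type late 2-cell step (34.2% of all genes), and 1 was higher and 1 lower in mzKO embryos at both times. The mitochondrial carrier Slc25a29 was the higher one each time, and was listed at 0 in wild-type 4-cell embryos. The lower one was the mitochondrial branched-chain carrier Slc25a44 (-1.62) at the late 2-cell stage and the aspartate-glutamate carrier Slc25a12 (-1.64) at the 4-cell time. These lists were not chosen independently of these data.

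The 3 lists were also counted at the other steps, over the same tested genes. Of all genes 25.1% were called either way in MII oocytes, 21.6% in early 2-cell embryos, 13.1% at the 4-cell stage and 28.3% in blastocysts. Of the amino acid response 5 rose and 1 fell in MII oocytes, 0 rose and 3 fell in early 2-cell embryos and 0 rose and 1 fell at the 4-cell stage. Of mTORC1 sensing it was 7 and 0, 0 and 7, and 1 and 3, and of the other carriers 8 and 0, 0 and 5, and 0 and 2. In blastocysts 2 rose and 2 fell, 4 and 4, and 3 and 6. The peptide transporter Slc15a2 stood there at 119 ± 84.7 FPKM against 0.0279 in 4-cell embryos (adjusted p = 9.97e-14), and Rragd at 15.6 ± 4.4 against 0.516 ± 0.386 (SD, n = 2 and 3, adjusted p = 3.05e-07). In Obox KO oocytes and mzKO early 2-cell embryos 0 genes of the 3 lists were called. The share of all genes called at each of these steps is given with the transporter genes above.

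Slc1a5 was again the called gene in late 2-cell Obox-- embryos, in which Obox3 and Obox4 were listed at 0. These embryos still held Obox6 at 170 to 221 FPKM, against 179 to 258 in Obox+-. Obox8 stood at 99.6 to 109 against 91.6 to 166. Between Obox-- and Obox+- late 2-cell embryos 1 of 24 genes tested fell and 0 rose, with 0.632% of all genes called (0.23% higher, 0.401% lower). Slc1a5 stood at 26, 30.4 and 17.1 FPKM in Obox+- and at 8.51, 7.59, 10.8 and 6.31 in Obox-- embryos, a log2 difference of -1.44 ± 0.277 (SE, adjusted p = 0.0172), and no Obox-- library reached the lowest Obox+- one. The call was lost without Obox-- replicate 4 (adjusted p = 0.0569), without Obox+- replicates 1 (0.0751) or 2 (0.0804), and at a pseudocount of 0.1 (0.069). The system N glutamine carrier Slc38a3 stood at 1.12, 1.14 and 1.24 in Obox+- and at 7.21, 5.79, 5.61 and 1.62 in Obox-- embryos. It was not called (adjusted p = 0.0901), though the groups did not overlap.

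At the early 2-cell stage 0 of the 24 genes passed between Obox-- and Obox+- (2 at an unadjusted p under 0.05, 0.461% of all genes called). The Obox+- embryos gave a second look at the early to late 2-cell step, in which 8 genes rose and 1 fell while 49.3% of all genes were called (28% higher, 21.3% lower). Slc7a6 led, from 0.37, 0.196 and 0.0357 FPKM to 23.6, 7.07 and 18.7 (3.72 ± 0.565, adjusted p = 2.12e-05). Slc1a5 rose from 1.09, 1.42 and 1.99 (3.33 ± 0.296, adjusted p = 3.87e-08), and Slc7a5 from 1.22, 2.24 and 1.41 to 10.6, 17.6 and 14.5 (2.53 ± 0.333, adjusted p = 4.07e-06). The stages did not overlap for these 3.

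The lysosomal glutamine carrier Slc38a7 rose from 0.475, 1.81 and 0.715 FPKM to 7.19, 3.05 and 4.78 (1.59 ± 0.367). Slc38a10, Slc38a6 and Slc6a8 also rose, and Slc7a14 fell. Slc1a1 stood at 0.346, 2.84 and 1.88 and then at 11.9, 1.66 and 5.79 (1.32 ± 0.511, adjusted p = 0.0334). Its stages overlapped, and its call was lost without late replicate 1 or 3 or early replicate 1. With median-ratio scaling 6 genes were called higher and 2 lower. Of the 3 lists 6, 8 and 5 rose in this step and 3, 7 and 2 fell, where 49.3% of all genes were called. Between Obox-- and Obox+- 0 genes of the lists were called at either stage.

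Embryos that lacked only the mother's Obox (mKO) had 0 of 18 genes called at the late 2-cell stage (2 at an unadjusted p under 0.05), where 12.9% of all genes were called and the fit had 2 residual degrees of freedom. Slc1a5 stood at 5.78 and 2.27 FPKM in wild-type and at 6.03 and 2.8 in mKO embryos, so the libraries overlapped. Slc6a8 stood at 1.72 and 2.48 against 0.474 and 0, without overlap, and is a call only with the replicate numbers as a block (adjusted p = 0.0392). Of the 3 lists 1, 3 and 0 genes fell and 0 rose, beside the 12.9% of all genes called either way. The single mKO blastocyst held Slc1a5 at 1.43 FPKM and Slc1a4 at 1.29, against 5.74 and 4.87 in its single control, while Slc38a4 was at 42.7 against 43.1 and Slc7a6 at 43.8 against 41.1. In that pair 2 of 21 genes were higher and 6 lower by at least 1 on the log2 scale, with 5.88% of all genes that far apart (3.8% higher, 2.07% lower), and there is no replicate to test it.

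Transporter RNA of arrested mzKO embryos of the blastocyst time was lower in FPKM, but not as a share of the RNA other than Rn45s. The genes summed to 107.5 and 23.21 FPKM, against 200.5, 212.4 and 219 in mzKO embryos of the 4-cell time, and to 0.323% and 0.215% of the FPKM without Rn45s, against 0.109%, 0.0975% and 0.131%. A single gene, Slc1a5, made up 64 of the 107.5 and 10.5 of the 23.21 FPKM. Compared with those embryos, 14 of 35 genes were lower and 1 was higher, with 61.5% of all genes called (0.801% higher, 60.7% lower). The arrested libraries stand apart: Rn45s took 55.4% and 71.5% of their FPKM, they held 3979 and 2167 genes at 1 FPKM, and replicate 1 held Obox3 at 59.7 FPKM. Slc3a2 stood at 12 and 0.541 FPKM against 68.5, 125 and 124 (-4.52 ± 0.693, adjusted p = 3.73e-06). Slc1a5 was the gene that rose, to 64 and 10.5 from 1.46, 3.42 and 6.35 (2.67 ± 0.486, adjusted p = 3.59e-05). Without replicate 1 of the arrested group the changes were 1.41 for Slc1a5 (adjusted p = 0.0125) and -6.06 for Slc3a2 (adjusted p = 4.54e-07), and 14 genes were called. With library sums made equal without Rn45s, the median of all genes moved from -1.52 to -0.68 and 9 genes were higher and 5 lower, and with median-ratio scaling it was -0.56, with 8 and 3. Slc38a7 changed sign there, from -1.20 to 0.41 and 0.23. Slc1a5 and Slc3a2 kept their directions. Of the 3 lists 11 of 19, 21 of 24 and 9 of 15 genes were called lower here and 0 higher, where 60.7% of all genes were lower.

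The mzKO embryos titled Obox157OE and Obox3OE, sampled as blastocysts, held the blastocyst set of carriers. Slc6a8 stood at 72.8 FPKM with Obox157OE and 12 with Obox3OE, against 84.7 and 21.1 in wild-type blastocysts and 0 and 4e-06 in arrested mzKO embryos. Slc7a6 stood at 46.7 and 36, against 46.1 and 19.7 in wild-type blastocysts, and Slc38a4 at 18.3 and 7.83, against 20.1 and 7.63. In the Obox157OE library all 3 values lay within the wild-type range or within 1 FPKM of it, and in the Obox3OE library that of Slc6a8 lay below it.

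Slc6a13 stood at 7.58 and 7.09 FPKM, above both wild-type blastocysts (5.91 and 3.63). Slc6a14 was at 13.4 and 3.32, and Slc38a1 at 4.03 and 1.63. The arrested library titled Obox4OE held all 6 at 1.04 FPKM or less, with Slc6a13 listed at 0. The 7 blastocyst markers summed to 4150 and 2420 FPKM in the Obox157OE and Obox3OE libraries, to 36.6 in the one titled Obox4OE and to 6.6 and 13.7 in arrested mzKO embryos, so the carriers were high in the libraries whose blastocyst markers were high. Slc1a5, low in wild-type blastocysts, was at 1.34 and 0.308 in these 2 blastocyst libraries. Each is a single library and no test was made.

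**Figure D4:**
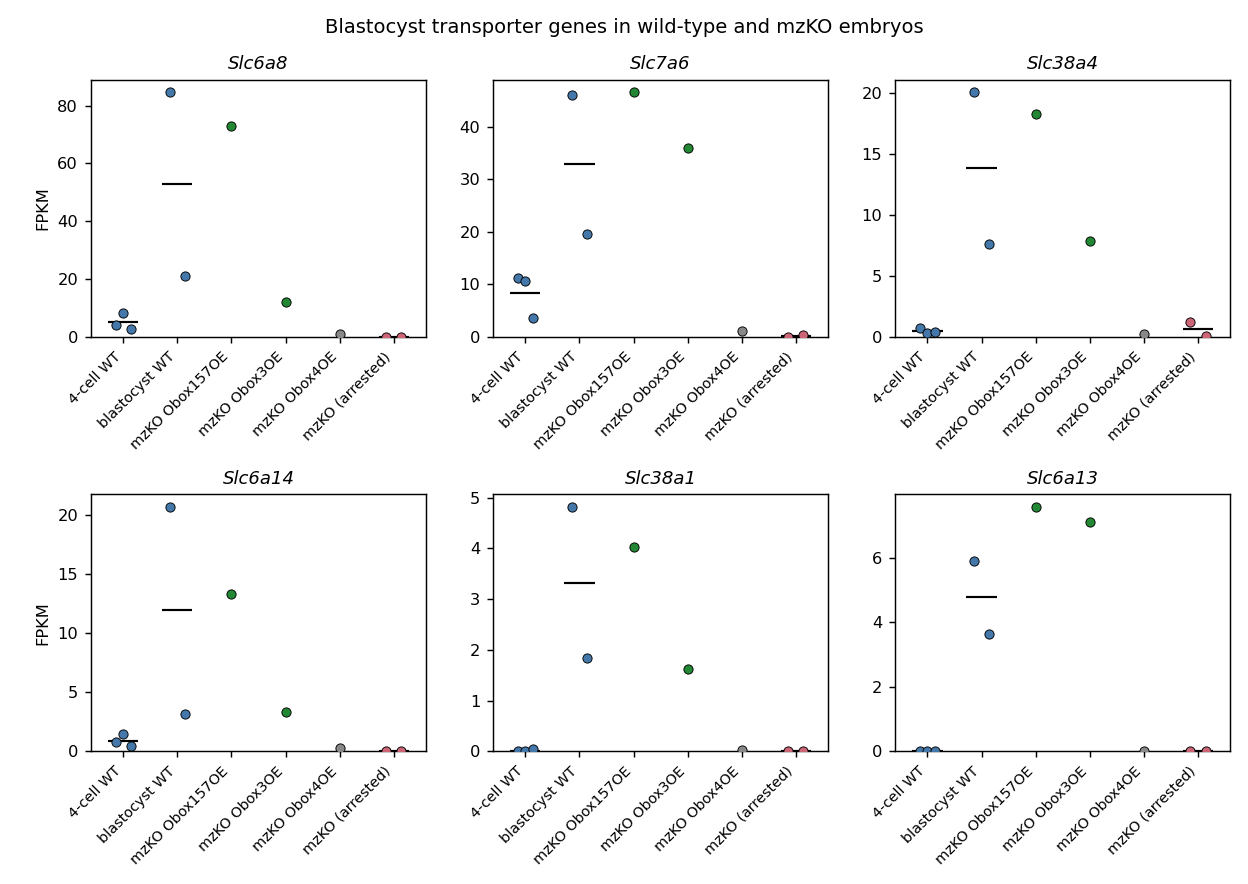
FPKM of 6 transporter genes that rose in wild-type blastocysts, in wild-type 4-cell embryos and blastocysts, in single mzKO libraries titled Obox157OE, Obox3OE and Obox4OE, and in arrested mzKO embryos (points; lines are means of groups with several libraries). The Obox157OE and Obox3OE libraries lie between 1.63 and 72.8, and the Obox4OE and arrested libraries at 1.21 or less.

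Knockdown with siRNA against 1 Obox gene, or against Obox1 and Obox2, gave no call. Targets were lowered, but not always alone. Obox5 stood at 2.31 to 9.3 FPKM with siObox5, against 367 to 818 in control parthenotes. Obox7 stood at 0.406 to 1.61 with siObox7 and at 4.86 to 7.45 with the Obox1 and Obox2 siRNAs, against 10.7 to 40.1. With siObox4, siObox6 and siObox8 the target stood at 3.38 to 10.7, 13.2 to 26.5 and 3.23 to 21.2. Controls stood at 37.4 to 51.7, 164 to 567 and 62.8 to 238. In late 2-cell parthenotes from oocytes given siRNA against Obox1 and Obox2 (siObox12mix), Obox5 or Obox7, 0 of 27 genes were called (0, 1 and 0 at an unadjusted p under 0.05), with 0.0233%, 0.0233% and 0.00776% of all genes called. In embryos from zygotes given siRNA against Obox4 (early 2-cell), Obox6 or Obox8 (4-cell) it was again 0 of 27 (0, 3 and 0 unadjusted), with 0.00776%, 0.0699% and 0% of all genes called. The comparisons of one stage share their control libraries. Slc1a5 stood at 2.11, 2.79 and 7.45 FPKM in control parthenotes, at 2.22 and 6.82 with siObox12mix, at 2.06 and 3.3 with siObox5 and at 2.87 and 6.09 with siObox7, all overlapping. Slc3a2 stood at 32.7, 24.9 and 39 in the controls and at 13.5 and 52.8 with siObox12mix. In single late 2-cell libraries, siObox3 against its control, Slc7a6 was lower (2.05 against 7.53 FPKM), 1 of 20 genes lower by at least 1 on the log2 scale and 0 higher, where 9.55% of all genes were that far apart (1.96% higher, 7.59% lower). Obox3 stood at 19.6 FPKM in that siObox3 library against 113. Obox1 (15.6 against 119), Obox2 (17.6 against 91) and Obox6 (56.6 against 152) were lower there as well.

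In ESCs Obox was added rather than removed, and Slc1a1 was the gene that rose. Overexpressed Obox3 stood at 760 to 2600 FPKM in its libraries and Obox5 at 467 to 2180. Slc1a1 stood at 0.382, 0.129, 0.385, 0.122 and 0.0344 FPKM in ESCs with GFP and at 7.93, 8.41, 11.1 and 7.01 with Obox3, a log2 change of 2.98 ± 0.338 (SE, adjusted p = 6.79e-06). With Obox5 it stood at 7.83, 7.24, 5.99 and 22.5 (3.12 ± 0.338, adjusted p = 7.44e-06). Every library with Obox3 or Obox5 lay above every GFP library. Both comparisons share the GFP controls.

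With Obox3, 1 of 26 genes rose and 1 fell (3.02% of all genes called, 2.82% higher and 0.197% lower), and with Obox5 1 rose and 0 fell (2.18%, 2.08% higher and 0.0983% lower). The gene that fell was Slc38a2 (SNAT2), which concentrates small neutral amino acids in the cell, from 18.6, 25.7, 22.2, 29 and 16.5 FPKM with GFP to 5.57, 10.2, 9.7 and 7.47 with Obox3 (-1.35 ± 0.341, adjusted p = 0.0272). With Obox5 it stood at 10.8, 20.2, 12.3 and 15.5 and was not called, and the difference between Obox3 and Obox5 was not tested. The call in Obox3 ESCs was lost without any 1 of Obox3 replicates 1, 3 and 4 or GFP replicates 2, 3 and 4 (adjusted p 0.0592 to 0.0798).

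The replicate numbers were taken to pair the libraries of this set, but the ESC counts and values above come from the fit without a block. With the number as a block, 5 genes were called for Obox3, adding Slc7a6, higher (1.25, adjusted p = 0.00243), and Slc6a6 (-1.22, 0.00136) and the b0,+ light chain Slc7a9 (-1.01, 0.00237), lower. Slc7a6 stood at 47.6, 29.5, 20.7, 10.3 and 12.2 FPKM with GFP and at 80.1, 66.4, 38.1 and 52.7 with Obox3, higher within each of the 4 numbered pairs. Summed 2-cell markers ran from 0.435 to 57.2 with GFP, from 10.8 to 80.8 with Obox3 and from 2.75 to 39.6 with Obox5, and 5 stem cell markers from 486 to 847, 458 to 1020 and 480 to 775.

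The second ESC set repeated both overexpressions with and without Nr5a2, a nuclear receptor gene, which was at most 2e-06 FPKM in the KO libraries and 0.566 to 4.42 in wild type. Slc1a1 was the 1 gene of 25 called higher in each of the 4 comparisons, and 0 were called lower. In wild-type cells it stood at 1.15 and 0.114 FPKM with GFP, at 8.64 and 14.1 with Obox3 (2.96 ± 0.464, adjusted p = 0.00231, 0.935% of all genes called, 0.765% higher and 0.17% lower) and at 9.55 and 10.4 with Obox5 (2.83 ± 0.464, adjusted p = 0.00343, 0.663%, 0.646% and 0.017%). In Nr5a2 KO cells it stood at 0.788 and 1.39 with GFP, at 17.1 and 18.2 with Obox3 (3.17 ± 0.464, adjusted p = 0.000358, 3.56%, 3.29% and 0.272%) and at 8.76 and 18.1 with Obox5 (2.72 ± 0.464, adjusted p = 0.00405, 0.935%, 0.926% and 0.0085%). All Obox libraries lay above all GFP libraries of either genotype.

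The effect of Obox3 on Slc1a1 in KO less that in wild-type cells was 0.21 ± 0.656 (95% interval -1.17 to 1.59), and that of Obox5 was -0.10 ± 0.656 (-1.48 to 1.28), with 0 of 25 genes called in either contrast (1 each at an unadjusted p under 0.05) and 0.102% and 0.0085% of all genes called. These intervals leave room for a difference of over 1 on the log2 scale. The overexpressed genes themselves differed between the genotypes. Obox3 stood at 133 to 353 FPKM in its wild-type and at 610 to 2520 in its KO libraries. Obox5 stood at 235 to 847 and at 1850 to 2200. The part of these levels in the contrasts was not tested. Without the filter on low values, or without 1 of several libraries, the call was lost in 3 of the 4 comparisons. Without wild-type GFP replicate 2, for example, the adjusted p was 0.0671 for Obox3 and 0.137 for Obox5, and without Obox5 replicate 2 of the KO cells it was 0.172. In KO cells with Obox3 the call was kept throughout. Summed 2-cell markers were at 9.62 and 89.8 FPKM in KO cells with GFP and at 188 and 434 with Obox3, and their part in the result was not tested.

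**Figure D5:**
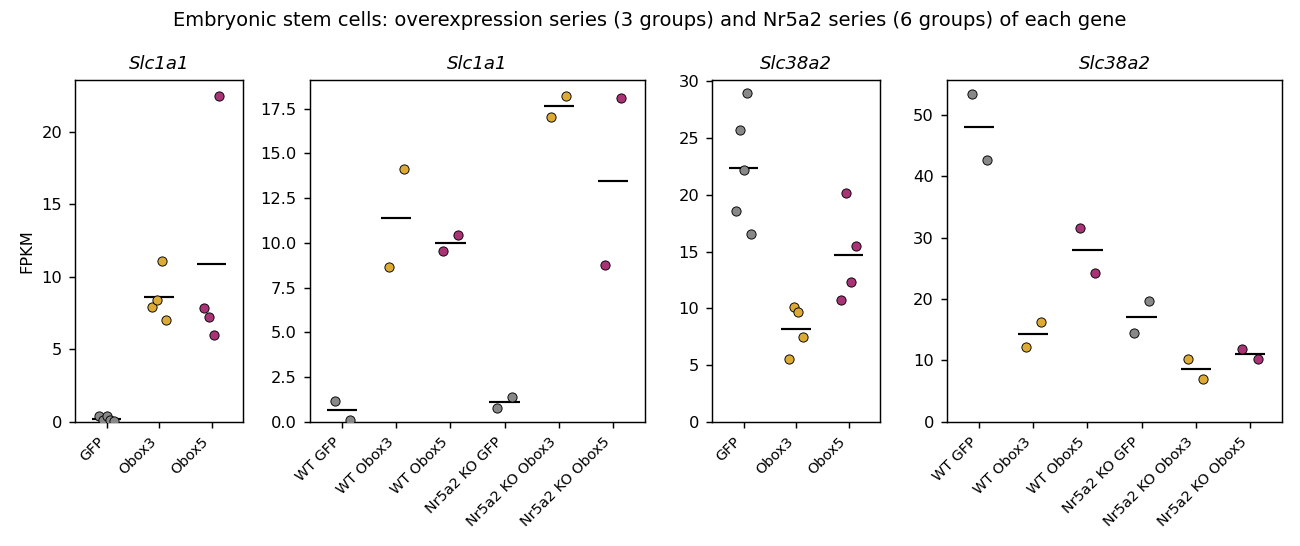
FPKM of Slc1a1 and Slc38a2 in each ESC library (points) with the group mean (line), for GFP, Obox3 and Obox5 overexpression in the first set and in wild-type and Nr5a2 KO cells of the second. Slc1a1 lies at 1.39 or less in every GFP library and between 5.99 and 22.5 in every Obox3 and Obox5 library.

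Without Obox, Nr5a2 KO cells differed from wild-type cells in 3 of the 25 genes, 1 higher and 2 lower, with 2.04% of all genes called (0.824% higher, 1.22% lower). The cationic carrier Slc7a3 (CAT3) fell from 117 and 55.1 FPKM to 10.7 and 20.1 (-2.38 ± 0.538, adjusted p = 0.0262), and Slc1a4 from 10.1 and 6.28 to 2.43 and 1.31 (-1.68 ± 0.427, adjusted p = 0.0484). The groups did not overlap for either. The dopamine transporter Slc6a3 rose, from 0.285 and 0.0683 to 2.8 and 2.11. None of the 3 was called with equal sums, without the filter, or with median-ratio scaling, which instead gave 2 genes lower (Slc1a5 and Slc38a2). Leaving out 1 library gave 0 or 1 call. Of the 3 lists, 1 gene was called here, Atf3 (10.4 ± 5.35 against 1.11 ± 0.481 FPKM, SD, n = 2 each, higher), and 1 with Obox3 in KO cells, Ppp1r15a. None was called with Obox3 or Obox5 in the first ESC set or in wild-type cells, nor in any knockdown.

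Wild-type embryos labelled as overexpressing an Obox gene gave single libraries. At the late 2-cell stage the gene of the label stood at 533 FPKM for Obox1, 50.8 for Obox2, 71.8 for Obox3 and 68.2 for Obox5, against 12.9, 15.5, 39.9 and 37.7 with water. In the blastocysts labelled Obox1, Obox2, Obox3 and Obox5 it stood at 3.37, 0.211, 0.135 and 0 FPKM, with all 4 listed at 0 in the water control, so those labels could not be checked at that time. None of the 13 to 15 transporter genes at 1 FPKM at the late 2-cell stage was 1 or more apart from the water control on the log2 scale, where 3.75% (Obox2) to 16.7% (Obox1) of all genes were. Slc1a1 stood at 10.5 FPKM with water and at 8.89, 12.7, 15.9 and 17.4 in the libraries labelled Obox1, Obox2, Obox3 and Obox5. Among blastocysts, the library labelled Obox1 had 11 of 23 genes lower and 2 higher, with 49.1% of all genes that far apart (6.59% higher, 42.5% lower). It held Slc6a14 at 1.4 against 35.5 FPKM and Slc7a6 at 9.98 against 71.2, and its summed blastocyst markers stood at 400 against 3190 in the water control. The blastocyst labelled Obox2 had 0 of 21 apart (5.26% of all genes), the one labelled Obox3 3 of 20 lower (6.25%, 1.45% higher and 4.8% lower) and the one labelled Obox5 2 of 22 higher, Slc1a5 and Slc7a7 (4.67%, 2.75% higher and 1.92% lower). There was 1 library each, and no test.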

How the data were processed

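RNA was measured by Smart-seq2 in 107 libraries of mouse oocytes, embryos and ESCs. The deposited values are FPKM per gene, made by the authors from reads aligned to mm9; HISAT2 2.2.1 and StringTie 2.1.2 are named, with Trim Galore 0.6.6, in the submitters' processing notes. Read totals are not given in the sources used here, and a search for whole reads in the FPKM values gave no depth, so depth is unknown and carries no interval or floor. Of 24143 names per table, 27 altered to dates were left out. The 7 tables were normalized separately, and tests stayed within a table.

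Values were taken as log2(FPKM + 1), genes at 1 FPKM or more in at least 2 of the fitted libraries were kept, and limma 3.58.1 (R 4.3.3, moderated with trend and robust) was fitted over all replicated groups of a table without a replicate block. P-values were adjusted (Benjamini-Hochberg) over all genes tested. A call is an adjusted p under 0.05 with a log2 difference of at least 1. The script was tested on simulated data. Single libraries were compared without a test, counting genes at 1 FPKM or more in either library. Any transporter gene may be named, and values per library are given for called genes with a mean of at least 5 FPKM in the higher group, and for others where a comparison turns on them. Genes outside the family come from 3 lists (amino acid response, mTORC1 sensing, other amino acid carriers), up to 4 each way. The members and lists were chosen with earlier results of these data known.

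Same-numbered libraries deviated together in the ESC overexpression set (correlation of deviations 0.276 to 0.674 for Obox3 and 0.414 to 0.637 for Obox5 over 4 pairs). Its numbers were taken to pair the libraries, though for Obox3 not every library deviated most like its same-numbered one. Some comparisons of 2 pairs also had high values: KO full-grown oocytes (0.621), mzKO early 2-cell embryos (0.655), siObox4 (0.688), siObox6 (0.462 and 0.538) and Obox5 in the Nr5a2 set (0.471 and 0.456). Over 2 pairs this does not settle whether the numbers pair the libraries, and the main fits have no block. Alternatives were a pseudocount of 0.1, no filter, equal sums without Rn45s, median-ratio scaling, the replicate block and each library left out. Promoter windows come from RefSeq (GRCm38.p6), matched by symbol.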

Additional observations from a re-analysis of the deposited data

Results flagged for a closer look

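Slc1a1 in ESCs overexpressing Obox5 had 1 library far from the others. Replicate 4 stood at 22.5 FPKM and the other 3 between 5.99 and 7.83, so the gap was 0.888 of the range of the group, above Dixon's limit for 4 libraries. Chance gives such a gap in about 1 of 20 checks, and 6 pairs of a called gene and a group were checked, over 4 groups.

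Slc7a14, a lysosomal membrane member of the cationic carrier family, moved in opposite directions at the 2-cell times. In early 2-cell embryos it stood at 0.89 and 1.29 FPKM in mzKO against 1.31 and 1.93 in wild type, and in late 2-cell embryos at 2.52, 1.24 and 1.87 against 1.01, 0.8 and 1.22. The early difference less the late one was -0.844 on the log2(FPKM + 1) scale. Neither difference was called, and the difference between them was not tested.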

How the results depend on the processing

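Of 81 gene results called in the comparisons, 26 stayed past the threshold in every alternative run and 1 changed sign. Slc38a7 in arrested mzKO embryos went from a fall to 0.412 with equal sums and 0.227 with median-ratio scaling. Counts of called transporter genes moved by over 1.5 times as follows. At a pseudocount of 0.1 the MII step had 4, mzKO late 2-cell 1, Obox-- late 2-cell 0, ESC Obox5 2, Nr5a2 KO with GFP 1 and wild-type ESCs with Obox5 2. Without the filter mzKO at the 4-cell time had 3, and Nr5a2 KO with GFP, wild-type ESCs with Obox3 or Obox5 and KO ESCs with Obox5 had 0. With equal sums the MII step had 2, the 4-cell step 1, Nr5a2 KO with GFP 0 and wild-type ESCs with Obox3 2. With median-ratio scaling the MII step had 2, the 4-cell step 1, mzKO late 2-cell 1, wild-type ESCs with Obox3 3 and KO ESCs with Obox3 2. The cause was not tested.

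With the replicate numbers as a block, ESC Obox3 had 5 calls, Nr5a2 KO with GFP 5, wild-type ESCs with Obox3 3, KO ESCs with Obox3 2 and mKO late 2-cell 1. In Obox-- late 2-cell embryos the block gave 1 call, Slc38a3 (adjusted p = 0.0173), in place of Slc1a5 (0.0857). In mKO late 2-cell embryos, where same-numbered pairs deviated oppositely, crossed numbers gave 2 calls, a choice made after seeing the data, as was leaving out the long-arrested mzKO libraries, which kept every call of the other comparisons of that set. Crossed numbers gave 9 calls for the early 2-cell step and 0 for MII KO.

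Leaving out 1 library gave 0 to 6 calls for the MII step, 5 to 12 for the early 2-cell step, 5 to 9 for late 2-cell, 0 to 4 for 4-cell and 5 to 12 for blastocyst. For mzKO it gave 1 to 2 at late 2-cell, 2 to 7 at the 4-cell time and 14 to 16 in arrested embryos. It gave 0 to 1 for Obox-- late 2-cell, 7 to 9 for the Obox+- step, 0 to 2 for mKO, 1 to 2 for ESC Obox3 and for ESC Obox5, 1 to 1 for Nr5a2 KO ESCs with Obox3, 0 to 1 for the other 4 comparisons of that set, and 0 in the rest. A lone library left in a group was assumed to vary like the other groups. With 2 to 5 libraries a group and unknown depth, small differences and low genes could not be resolved, and an uncalled gene is not shown to be equal.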
